A study of Mus musculus with 9 samples.

Results

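The genes described here are the ligands and receptors of the orexin and melanin-concentrating hormone (MCH) systems of the lateral hypothalamus. They were chosen by symbol and comprise Hcrt, Pmch, Hcrtr1, Hcrtr2 and Mchr1, which are 5 of the 14351 genes measured. Hypothalamic RNA of Clic1 KO and WT mice was sequenced, and the question was how the hypothalamic transcriptome differs in mice that lack Clic1, a chloride intracellular channel protein. The study describes whole-body Clic1 KO mice bred on a CD-1 background, in which the gene is lost from all tissues and not from neurons alone, with WT littermates, both on normal chow. The labels instead name the strain C57b/6J and describe every mouse as male, and no age is given for these mice. There were 5 KO libraries (replicates 2, 4, 6, 8 and 10) and 4 WT libraries (replicates 1, 3, 9 and 11), each taken as a separate mouse, so that p-values measure the spread between these libraries. The treatment field of the labels also names adipose tissue, although the tissue is given as hypothalamus.

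Orexin and MCH are made by separate, intermingled neurons of the lateral hypothalamus that project throughout the brain. Orexin neurons promote wakefulness, food seeking and energy expenditure, and loss of orexin signalling causes narcolepsy. MCH neurons promote feeding, energy storage and sleep, and mice without MCH or its receptor are lean. Both systems signal through G protein-coupled receptors.

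Replicate 10 carried conflicting labels. Its title and treatment label read WT, whereas its library description begins with the K used for KO libraries, and it was placed with the KO mice. Levels are in CPM, the reads of a gene scaled to a common library total, as deposited after the normalization by the authors. Clic1 itself reached 1.93, 1.32, 0.733, 1.25 and 1.43 CPM in KO mice 2, 4, 6, 8 and 10, against 5.52, 4.66, 5.3 and 3.58 CPM in WT mice 1, 3, 9 and 11, so replicate 10 sat among the KO libraries. The estimated depth was 5.45 to 20.8 M reads in KO libraries and 7.28 to 10.97 M in WT libraries, and the deepest library was replicate 10. This library also stood apart in many genes, so the fold change of each member is given with and without it. Of the 13 genes listed as markers of hypothalamic identity, all passed the filter on low values, and the most abundant are given with the other markers at the end.

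The peptides behind the 2 ligand genes are short stretches of longer precursors. Hcrt (ENSMUSG00000045471, GRCm38 chr11:100761069-100762931, minus strand) encodes a precursor of 130 codons from which both orexins are cut. Orexin-A is held together by disulfide bridges and orexin-B is linear. Their coding sequences are shown because a read on Hcrt counts toward both peptides, and the 2 cannot be told apart in these data. Both stretches lie in exon 2 of 2 of Hcrt, orexin-A at chr11:100761992-100762090 and orexin-B at chr11:100761899-100761982. They are written 5′ to 3′ on the coding strand, from the GENCODE mouse release 21 annotation, with codons for cysteine in capitals.
orexin-A: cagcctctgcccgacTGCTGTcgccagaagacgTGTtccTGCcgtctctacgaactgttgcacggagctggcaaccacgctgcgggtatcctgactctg
orexin-B: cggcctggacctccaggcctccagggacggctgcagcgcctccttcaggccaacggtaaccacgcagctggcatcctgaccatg
Orexin-A has 33 codons with 4 for cysteine, and orexin-B has 28 codons with none. The longest run of residues encoded in both peptides is 9.

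Pmch (ENSMUSG00000035383, GRCm38 chr10:88091072-88092375, plus strand) encodes a precursor of 165 codons, and MCH is its last stretch of 19 codons, which contains the pair of cysteines that close the peptide ring. The coding sequence of MCH is shown because it is where Pmch shares its locus with another gene. It spans an intron between exons 2 and 3 of 3 (chr10:88091877-88092186, plus strand).
MCH: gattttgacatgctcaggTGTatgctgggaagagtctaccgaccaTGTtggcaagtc
All 57 bases lie within an exon of Parpbp (ENSMUSG00000035365, chr10:88091432-88146941), a DNA repair gene on the minus strand. The 2 genes overlap over 944 bases, of which 435 are exonic in both. The sources used here do not state whether reads were counted by strand, so reads of Pmch and Parpbp in the shared exons cannot be told apart.

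The receptor genes lie on 3 chromosomes: Hcrtr1 (ENSMUSG00000028778, chr4:130130217-130139359, minus strand), Hcrtr2 (ENSMUSG00000032360, chr9:76225880-76323856, minus strand) and Mchr1 (ENSMUSG00000050164, chr15:81235499-81238964, plus strand). Hcrtr1 binds orexin-A with preference and Hcrtr2 binds both orexins. The coding sequences of Hcrtr1 (416 codons) and Hcrtr2 (460 codons) were 71.3% identical over 1240 aligned bases, and their transcripts shared no identical run longer than 36 bases. Mchr1 (353 codons), the only MCH receptor of mice, was 63.1% identical to Hcrtr1 and shared runs of at most 11 bases with it. Hcrtr2 also overlaps Gm27234 on the opposite strand, but no exon of that gene lies within an exon of Hcrtr2.

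The ligand genes were expressed far above their receptors. Levels were compared between genes as CPM per kilobase of exon. Pmch had 327.3 ± 59.5 CPM per kb (SD, n = 9 libraries) and was more highly expressed than 99.8% of the 14336 genes with a known length. Hcrt had 83.9 ± 23 CPM per kb and exceeded 97.98% of genes. These peptide genes are used by small groups of neurons but stood near the top of a whole hypothalamus. Mchr1 had 6.33 ± 0.881, Hcrtr2 2.76 ± 0.452 and Hcrtr1 1.84 ± 0.408 CPM per kb, which placed the receptor genes above 50.2%, 26.9% and 19.3% of genes. The order from Pmch to Hcrt to Mchr1 to Hcrtr2 held in 9 of 9 libraries with no overlap in range between neighbours. Hcrtr2 and Hcrtr1 overlapped in range, with Hcrtr2 higher in 8 of 9 libraries. In whole tissue, fewer cells of a type and less RNA per cell cannot be told apart.

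The reads behind a gene grow with its length as well as its level. An estimated 1320 to 6760 reads per library fell on Pmch and 284 to 705 on Hcrt. The receptors were sampled more thinly, with 88.8 to 261 reads on Hcrtr2, 78.8 to 223 on Mchr1 and 22 to 67 on Hcrtr1. The values of Hcrtr1 therefore have the largest relative counting error.

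None of the 5 genes differed between KO and WT at an adjusted p under 0.05 (limma on log2(CPM + 0.1), Benjamini-Hochberg adjustment over 14351 genes), where 0.286% of all genes did. At an unadjusted p under 0.05 the count was 1 of 5, against 6.5% of all genes. The gene was Hcrtr1, which was also the 1 gene of the 5 whose KO and WT libraries did not overlap, as in 3.41% of all genes. The median log2 fold change of the 5 genes was −0.10, against 0.00089 over all genes. It was −0.03 without replicate 10 and 0.04 with that library as WT. The plot of normalized CPM by gene shows each library, and the plot of fold changes shows each estimate with its interval.

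**Figure D1:**
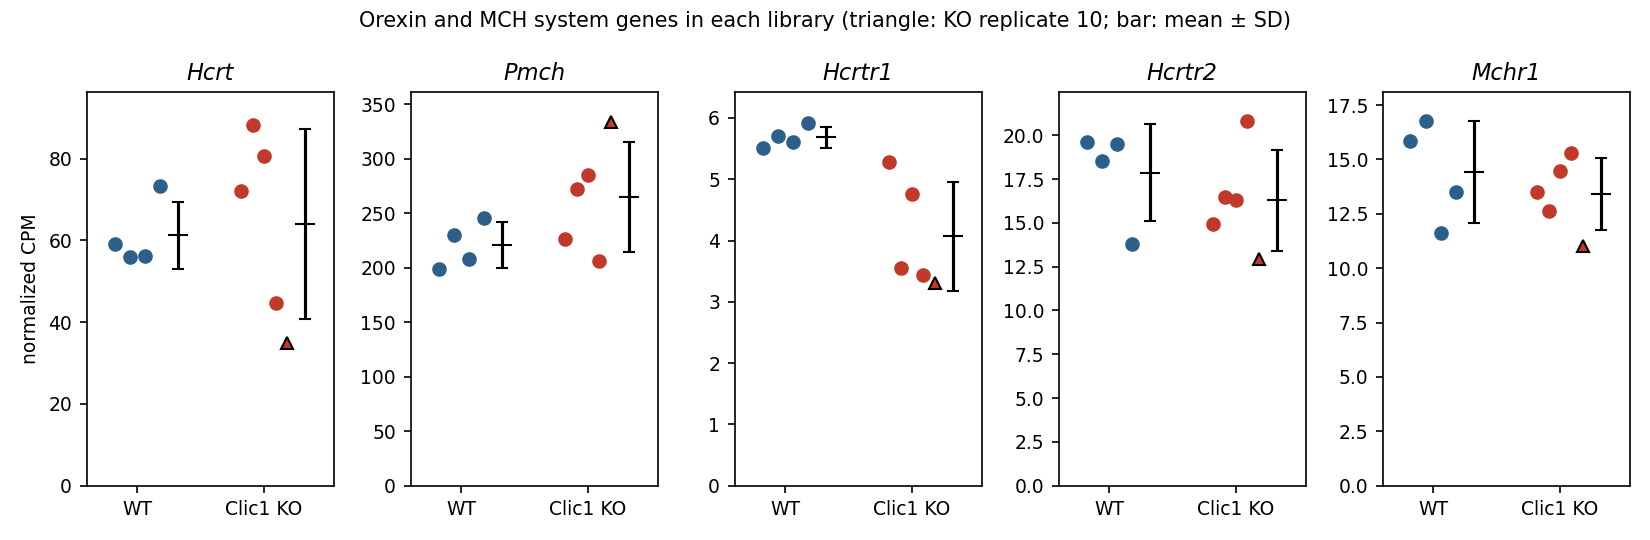
Normalized CPM (vertical axes, starting at 0) of Hcrt, Pmch, Hcrtr1, Hcrtr2 and Mchr1 in each WT library (blue, n = 4) and each Clic1 KO library (red, n = 5), with mean and SD as black bars and KO replicate 10 as a triangle. Hcrtr1 is the gene whose groups do not overlap, with KO libraries from 3.31 to 5.28 and WT libraries from 5.52 to 5.92.

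Hcrt encodes prepro-orexin, the precursor of both orexins. Hcrt measured 72.1, 88.2, 80.6, 44.6 and 34.9 CPM for KO mice 2, 4, 6, 8 and 10, against 59.2, 56.1, 56.2 and 73.4 CPM for WT mice 1, 3, 9 and 11. KO libraries lay on both sides of the WT libraries: replicates 4 and 6 were above all of them, replicates 8 and 10 below all of them. The means were almost equal, at 64.1 ± 23.2 (SD, n = 5) and 61.2 ± 8.26 CPM (n = 4). The log2 fold change was −0.01 with a standard error of 0.24 and a 95% interval of −0.54 to 0.51 (limma, adjusted p = 0.996). In linear terms this interval runs from 0.689-fold to 1.43-fold. Without replicate 10 the log2 fold change was 0.18 (−0.16 to 0.52, limma, adjusted p = 0.754), and with that library as WT it was 0.34 (−0.13 to 0.82, limma, adjusted p = 0.778). The estimate also turned positive without KO replicate 8 (0.10) and without WT replicate 11 (0.08), so its direction was not stable, and neither direction passed the test.

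Pmch encodes the MCH precursor, which also yields other peptides. Pmch measured 226, 272.3, 285, 206.1 and 334.1 CPM for KO mice 2, 4, 6, 8 and 10, against 198.7, 229.7, 208.4 and 245.6 CPM for WT mice 1, 3, 9 and 11. KO replicates 4, 6 and 10 were above every WT library, and replicates 2 and 8 lay within the WT range. The means were 265 ± 50.5 and 221 ± 21.1 CPM. The log2 fold change was 0.25 ± 0.13 (SE; 95% interval −0.03 to 0.52), which did not pass the test (limma, adjusted p = 0.790; exact permutation test, two-sided p = 0.175). The highest value was that of replicate 10, and without it the log2 fold change was 0.16 (−0.04 to 0.35, limma, adjusted p = 0.588). With replicate 10 as WT it was 0.04 (−0.28 to 0.35, limma, adjusted p = 0.960). In the same library Cpe and Scg5, which act in peptide processing in secretory granules, were 1688 and 411.8 CPM, above the 1039 to 1131 and 252.6 to 273.8 CPM of the other KO libraries. Their part in the Pmch value was not tested.

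Parpbp, the gene that overlaps Pmch, was low by comparison. It measured 4.16, 3.40, 4.36, 3.56 and 3.33 CPM for KO mice 2, 4, 6, 8 and 10, against 3.65, 2.78, 2.46 and 3.86 CPM for WT mice 1, 3, 9 and 11. The groups overlapped, and the log2 fold change of 0.25 did not pass the test (limma, adjusted p = 0.862). Without replicate 10 it was 0.29 (limma, adjusted p = 0.693). With the CPM of Pmch and Parpbp summed, the log2 fold change was 0.25 (limma, adjusted p = 0.787).

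Hcrtr1 encodes orexin receptor 1, a receptor known in the locus coeruleus and in reward-related regions. Hcrtr1 measured 5.28, 3.56, 4.76, 3.44 and 3.31 CPM for KO mice 2, 4, 6, 8 and 10, against 5.52, 5.70, 5.60 and 5.92 CPM for WT mice 1, 3, 9 and 11. No KO value reached the WT range. KO replicates 2 and 6 came nearest to it, and the other KO libraries were at 3.56 CPM or less. KO replicate 2 had an estimated 41 reads and the WT libraries 42.9 to 60.9, so counting error could close the gap between 5.28 and 5.52 CPM. The SD among WT libraries on the log2 scale was 0.04, below the 0.18 to 0.22 that counting error alone would give. Of all genes, 1.74% showed no overlap with KO lower and 1.67% no overlap with KO higher. The means were 4.07 ± 0.891 and 5.68 ± 0.176 CPM, and the log2 fold change was −0.50 ± 0.17 (SE; 95% interval −0.88 to −0.12), or 0.709-fold (0.545 to 0.922). The unadjusted limma p was 0.0145 and the exact permutation p was 0.0159, the smallest that groups of 5 and 4 can give. Over all genes the limma adjusted p was 0.622, so Hcrtr1 was not called.

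The values were also computed without single libraries. Without KO replicate 10 the log2 fold change was −0.43 (−0.82 to −0.04, limma, adjusted p = 0.403). Groups that do not overlap stay apart when a library is left out. The exact permutation p was therefore fixed in advance at 0.0286, the smallest that 4 against 4 libraries can give. Without this library, 6.06% of all genes showed no overlap. Leaving out each library in turn gave −0.59 to −0.43, with an unadjusted limma p under 0.05 in 9 of 9 fits and an adjusted p of 0.403 to 0.989. These fits share most of their libraries and start from groups that do not overlap, so they are not separate tests. The same count was 2 of 9 for Pmch and 0 of 9 for Hcrt, Hcrtr2 and Mchr1. With replicate 10 as WT the Hcrtr1 difference was −0.28 (−0.74 to 0.18, limma, adjusted p = 0.799).

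Hcrtr2 encodes orexin receptor 2, whose loss causes narcolepsy in dogs. Hcrtr2 measured 14.9, 16.5, 16.3, 20.8 and 12.9 CPM for KO mice 2, 4, 6, 8 and 10, against 19.6, 18.5, 19.5 and 13.8 CPM for WT mice 1, 3, 9 and 11. The groups overlapped, with the highest and the lowest value both in KO libraries and WT replicate 11 well below the other WT libraries. The means were 16.3 ± 2.90 and 17.9 ± 2.77 CPM, and the log2 fold change of −0.14 ± 0.15 (SE; 95% interval −0.46 to 0.19) did not pass the test (limma, adjusted p = 0.888). Without replicate 10 it was −0.06 (−0.34 to 0.22, limma, adjusted p = 0.932). WT replicate 11 also carried more RNA of Slc6a3, the dopamine transporter, at 77.1 CPM against 3.44 to 12.1 CPM in the other WT libraries. The summed level of the 3 measured midbrain dopamine markers was 45.7 to 72.2 CPM among KO mice, against 40.2 to 152.3 CPM among WT mice, and the part of this tissue in the Hcrtr2 value was not tested.

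Mchr1 encodes the MCH receptor, which couples to inhibitory and Gq proteins. Mchr1 measured 13.5, 12.7, 14.5, 15.3 and 11.03 CPM for KO mice 2, 4, 6, 8 and 10, against 15.8, 16.8, 11.6 and 13.5 CPM for WT mice 1, 3, 9 and 11. The KO libraries lay largely within the WT range, with replicate 10 just below it. The means were 13.4 ± 1.66 and 14.4 ± 2.34 CPM, and the log2 fold change of −0.10 ± 0.14 (SE; 95% interval −0.40 to 0.20) did not pass the test (limma, adjusted p = 0.912). Without replicate 10 it was −0.03 (−0.30 to 0.24, limma, adjusted p = 0.964). The intervals of Hcrtr2 and Mchr1 run from 0.726-fold to 1.14-fold and from 0.758-fold to 1.15-fold.

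**Figure D2:**
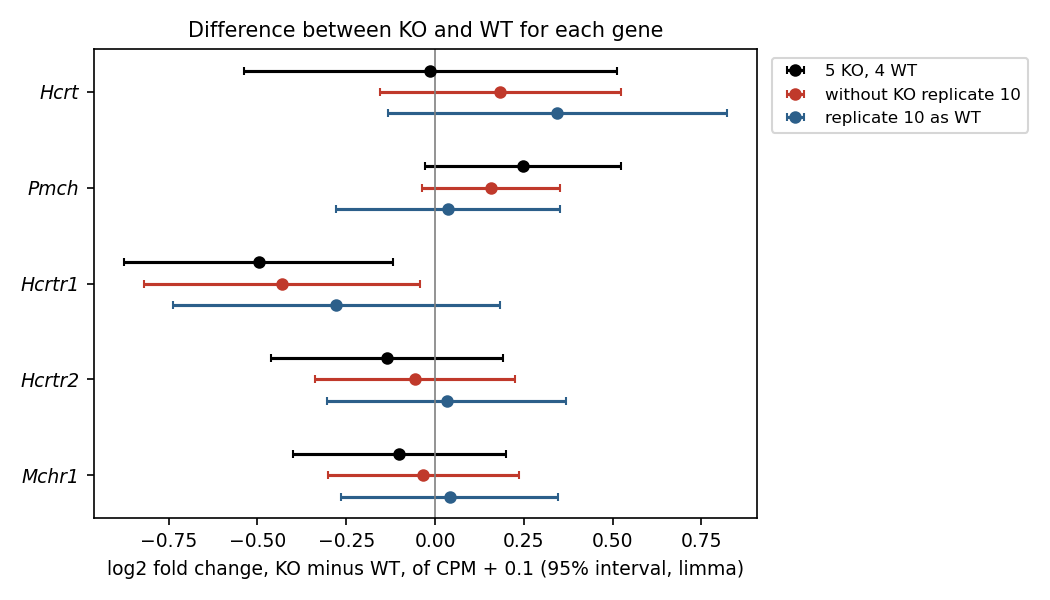
Log2 fold change of KO minus WT on the log2(CPM + 0.1) scale (horizontal axis) for each gene, with 95% intervals from limma, for all 9 libraries (black), without KO replicate 10 (red) and with replicate 10 as WT (blue). The Hcrtr1 interval lies below 0 with all libraries (−0.88 to −0.12) and without replicate 10 (−0.82 to −0.04), and every other interval includes 0.

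The genes differed in how much they varied between libraries of one genotype. Hcrt was the most variable, with an SD on the log2 scale of 0.58 among KO and 0.18 among WT libraries, and its pooled SD of 0.46 was larger than that of 97.6% of 12072 genes (those averaging 5 CPM or more). The median pooled SD of those genes was 0.161. Without replicate 10 Hcrt was still above 96.8% of genes. The highest KO library had 2.53 times the Hcrt level of the lowest, against 1.31 times among WT libraries. Pmch (pooled SD 0.23, above 73.9% of genes), Hcrtr2 (0.25, above 78.7%) and Mchr1 (0.21, above 68.0%) varied less, and without replicate 10 they were above 80%, 87.98% and 81.2% of genes. Counting error alone would give an SD of 0.09 to 0.15 for Hcrtr2 and 0.10 to 0.16 for Mchr1 in KO libraries. It would give 0.02 to 0.04 for Pmch and 0.05 to 0.09 for Hcrt. The spread of Hcrtr2 and Mchr1 therefore includes counting error beside any variation between mice. Hcrtr1 had an SD of 0.04 among WT and 0.30 among KO libraries. Counting error alone would give an SD of 0.18 to 0.22 at the 42.9 to 60.9 estimated reads of the WT libraries and 0.18 to 0.31 at the 22 to 67 reads of the KO libraries, so neither SD can be read as variation between mice.

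Hcrt and Pmch levels showed no clear correlation over the 9 libraries. A positive correlation appeared only with replicate 10 left out, and it did not pass adjustment. Over the 9 libraries Hcrt and Pmch had a Pearson r of −0.07 (exact permutation p = 0.868) and a Spearman rho of 0.22 (exact permutation p = 0.581). Replicate 10 had the lowest Hcrt level and the highest Pmch level of all libraries. Without it r was 0.83 (exact permutation p = 0.0121, adjusted p = 0.121 over 10 pairs of genes) and rho was 0.74 (exact permutation p = 0.0458). Without KO replicates 10 and 4, the libraries farthest from the median of Hcrt, r was 0.77. The ratio of Pmch to Hcrt CPM came to 3.14, 3.09, 3.54, 4.63 and 9.58 for KO mice 2, 4, 6, 8 and 10, against 3.35, 4.10, 3.71 and 3.35 for WT mice 1, 3, 9 and 11. The ratio of replicate 10 thus lay far outside the range of the others, which is drawn in the plot of Pmch against Hcrt.

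**Figure D3:**
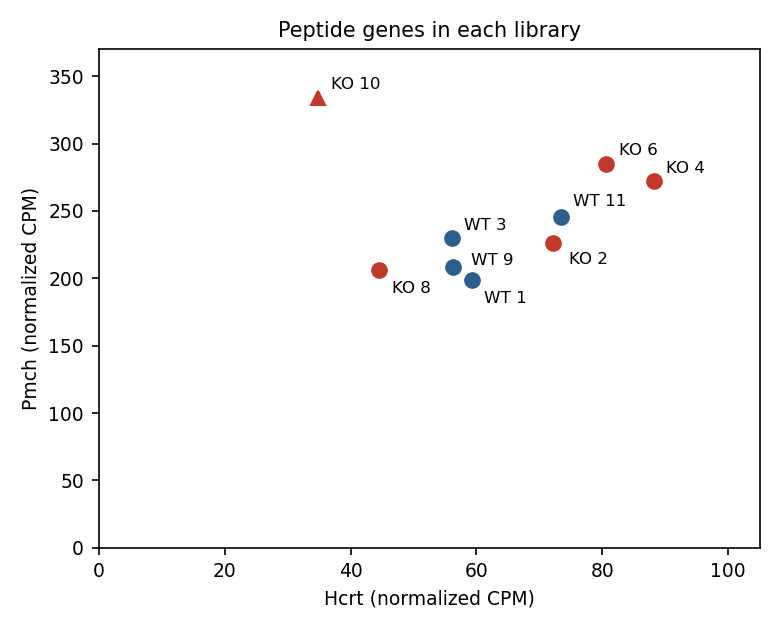
Pmch (vertical axis) against Hcrt (horizontal axis), both in normalized CPM, in each WT (blue) and Clic1 KO (red) library, labelled by replicate, with KO replicate 10 as a triangle. Replicate 10 lies apart at 34.9 CPM of Hcrt and 334.1 CPM of Pmch, and the other libraries range from 44.6 to 88.2 CPM of Hcrt and from 198.7 to 285 CPM of Pmch.

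Among the other pairs, Pmch and Hcrtr2 had the most negative correlation, with r = −0.77 (exact permutation p = 0.0154, adjusted p = 0.154 over 10 pairs) and rho = −0.80 (exact permutation p = 0.0138, adjusted p = 0.138). Leaving out KO replicates 10 and 6, the farthest from the median of Pmch, gave r = −0.68, and leaving out replicate 10 alone gave −0.63 (exact permutation p = 0.101). Hcrt and its receptor gene Hcrtr2 had r = −0.04 over 9 libraries and r = −0.78 without replicate 10 (exact permutation p = 0.0247, adjusted p = 0.123). No pair passed adjustment over the 10 pairs, with or without replicate 10. Neither genotype had 6 libraries, so no correlation is given within a genotype. With each group centred on its own mean, r over the 9 libraries was −0.07 for Hcrt and Pmch, −0.76 for Pmch and Hcrtr2 and 0.60 for Hcrt and Hcrtr1, given as a description.

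The genes whose levels followed each member most closely across the 9 libraries, after each group was centred on its mean, were named by the highest Pearson r as a description. For Hcrt these were Tmem131l (r = 0.96), Xxylt1 (0.96) and Cs (0.95), and for Pmch they were Telo2, Rrm1 and Sdccag8 (each 0.95). Hcrtr1 was followed by Cdh24 (0.97), Polm (0.96) and Caskin1 (0.94), Hcrtr2 by Scamp2 (0.97), Tmem198b (0.96) and Nr5a1 (0.96), and Mchr1 by Phykpl (0.98), Endov (0.96) and Cr1l (0.96). These libraries share the same tissue and differ in depth. The named genes have the highest r among 12072 genes compared over 9 libraries, a search in which unrelated genes can also reach a high r. The level of r that chance would give was not computed.

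The genes around the orexin and MCH system were followed in 6 lists of 52 genes, of which 51 were measured. None passed the adjusted threshold, also without replicate 10 and with that library as WT. At an unadjusted limma p under 0.05 there were 3 of the 51 (5.88%, against 6.5% of all genes), and 2 had groups that did not overlap (3.92%, against 3.41% of all genes). The median log2 fold change was −0.03, and single genes ranged from −0.43 to 0.31. The plot of fold changes by list shows each of these genes beside the spread of all genes.

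**Figure D4:**
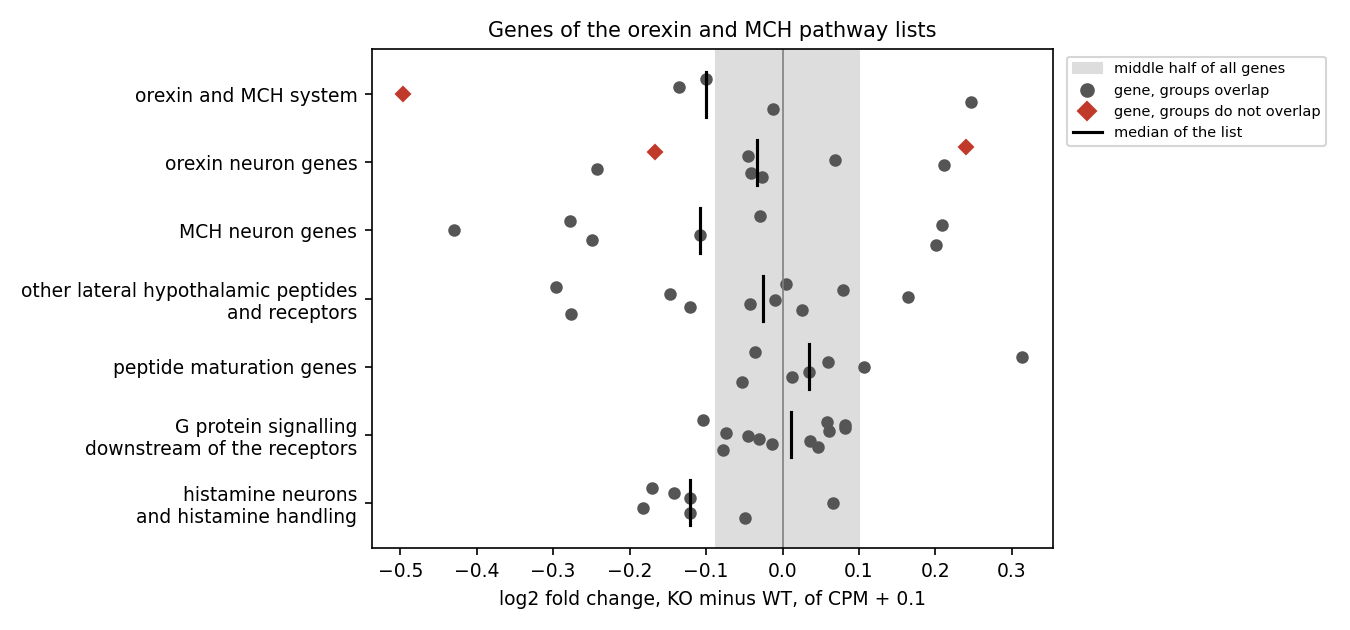
Log2 fold change of KO minus WT on the log2(CPM + 0.1) scale (horizontal axis) for the genes of each list (rows), with the list median as a bar, genes with non-overlapping groups as red diamonds and the range between the quartiles of all genes, −0.09 to 0.10, shaded. The 3 diamonds are Hcrtr1 (−0.50), Slc17a6 (−0.17) and Scg2 (0.24).

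Of 8 measured genes listed for orexin neurons, the 2 genes without overlap differed in sign, and neither passed the test. Slc17a6, the vesicular glutamate transporter of most hypothalamic excitatory neurons, was 341.9 to 387 CPM among KO mice, against 397.3 to 420.7 CPM among WT mice (log2 fold change −0.17, limma, adjusted p = 0.598). Scg2, a granin of secretory granules, was 780.5 to 1057 CPM among KO mice, against 679 to 780.4 CPM among WT mice (0.24, limma, adjusted p = 0.648). Without replicate 10 the values were −0.15 for Slc17a6 and 0.17 for Scg2 (limma, adjusted p = 0.230 and 0.192). Both genes are expressed widely in the hypothalamus beyond orexin neurons. Lhx9, a transcription factor that promotes the formation of orexin neurons, had a log2 fold change of −0.24 (limma, adjusted p = 0.880). Qrfp, a peptide of the lateral hypothalamus, had 0.21 (limma, adjusted p = 0.888), and Igfbp3, a growth factor binding protein made by orexin neurons, had 0.07 (limma, adjusted p = 0.939). Without replicate 10 these were −0.09, 0.12 and 0.05. The list median was −0.03, and −0.04 without that library.

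Of 7 genes listed for MCH neurons, the groups of every gene overlapped and the median was −0.11. Cartpt, the CART peptide precursor made by many MCH neurons, averaged 65.6 CPM among KO mice and 57.4 CPM among WT mice (log2 fold change 0.20, limma, adjusted p = 0.862). Tacr3, the neurokinin receptor of these same neurons, had −0.25 (limma, adjusted p = 0.857). Otx1 averaged 4.05 and 5.37 CPM and had the lowest value of the list, −0.43 (limma, adjusted p = 0.767). Without replicate 10 the values were 0.09 for Cartpt, −0.12 for Tacr3 and −0.32 for Otx1, and the list median was −0.006.

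Other lateral hypothalamic peptides and receptors (10 genes, median −0.03) included the 1 further gene with an unadjusted p under 0.05. Ntsr1, a neurotensin receptor, averaged 22.6 ± 3.14 CPM among KO and 27.7 ± 4.16 CPM among WT mice (−0.30, limma, adjusted p = 0.759). Its ligand Nts averaged 11.9 and 14.3 CPM (−0.28, limma, adjusted p = 0.794), and Tac1, the substance P precursor, had −0.12 (limma, adjusted p = 0.869). Without replicate 10 the values were −0.20 for Ntsr1, −0.36 for Nts and −0.21 for Tac1.

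Genes that mature peptide precursors (7 genes, median 0.03) were led by Pcsk1n, the inhibitor of prohormone convertase 1, averaging 946 ± 307 CPM among KO and 736 ± 54.4 CPM among WT mice (0.31, limma, adjusted p = 0.803). Its KO mean included 1482 CPM in replicate 10, and without that library its log2 fold change was 0.14 (limma, adjusted p = 0.485). Pcsk1, the convertase itself, had −0.05 (limma, adjusted p = 0.924), and Pam, which amidates the orexins, had 0.11 (limma, adjusted p = 0.857). The G protein pathway downstream of the receptors (12 genes, median 0.01) was the most even, with values of −0.10 for the channel Trpc5, −0.08 for Gnaq and 0.08 for the phospholipase Plcb4. Histamine neurons carry Hcrtr2 and are a main target of orexin, and their list (7 genes, median −0.12) gave −0.05 for Hdc, the histamine-making enzyme, −0.18 for the receptor Hrh1, −0.17 for Maob and −0.12 for Hnmt, which degrade histamine or its product. The adjusted p of these 7 genes was 0.803 to 0.953 (limma).

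Markers of cell types and of neighbouring regions were compared in 13 lists, with 69 of 83 genes measured. The summed level overlapped between KO and WT in 12 lists. The exception was hypothalamic identity, at 569.2 to 637.7 CPM among KO mice, against 474.9 to 522.5 CPM among WT mice, a list that contains Avp, the 1 marker gene past the threshold. This list had a median log2 fold change of 0.02, and its single genes ranged from −0.34 to the 0.90 of Avp. Its most abundant genes included Avp, the vasopressin precursor, and Sst, the somatostatin precursor. Avp was at 188.7 to 255.2 CPM for KO and 96.05 to 122.8 CPM for WT mice (limma, adjusted p = 0.00270). The limma adjusted p of Avp was 2.02e-05 without replicate 10 and 0.687 with that library as WT. Sst was at 89.93 to 131.8 CPM for KO and 94.70 to 122 CPM for WT mice. Rax, also in this list, had no overlap either, at 4.33 to 5.54 CPM for KO and 2.76 to 4.31 CPM for WT mice (0.34, limma, adjusted p = 0.788). Pituitary markers, which come from tissue attached at the base of the hypothalamus, summed to 22.3 to 59.0 CPM among KO mice, against 34.8 to 62.6 CPM among WT mice. Of the 4 measured, Pomc, also made in arcuate neurons, formed most of this sum and had a log2 fold change of 0.09, and the list median was −0.99. Tshb, the thyrotropin beta subunit, was 3.35 to 7.12 CPM for KO and 7.98 to 16.1 CPM for WT mice, with no overlap (−1.14, limma, adjusted p = 0.192). Cga, the subunit shared by pituitary glycoprotein hormones, had −1.42 (limma, adjusted p = 0.822) and Pitx1, a pituitary transcription factor, had −0.84 (limma, adjusted p = 0.759). Astrocyte markers summed to 4453 to 4771 and 4159 to 4649 CPM, and thalamic markers to 239 to 353.3 and 307.5 to 359.2 CPM. The part of these tissues in the values of Hcrtr1 and Pmch was not tested.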

How the data were processed

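RNA of the hypothalamus was sequenced from 5 Clic1 KO and 4 WT mice. According to the labels and methods, the authors trimmed reads (Trimmomatic 0.38), aligned them to GRCm38.p6 (STAR 2.5.1a), estimated gene counts (RSEM 1.3.0), removed low genes and scaled libraries by TMM in edgeR. The values deposited by the authors are a signal in normalized CPM, without the raw depth. A deposited table of the authors' own comparison (fold changes, scores and p-values) was used for gene symbols only. A further 1 column belonged to no sample here and was left out. Its name begins with the W used for WT libraries, and its values were not examined. All WT ranges and tests therefore rest on the 4 labelled WT libraries. Depth was estimated from the steps between low values, of which 81.3% to 86.6% per library lay within 0.03 reads of a whole read, so read numbers are approximate.

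Libraries were grouped by the labels, with replicate 10 placed by its description. Values were fitted as log2(CPM + 0.1) in limma 3.58.1 (R 4.3.3, lmFit and eBayes with trend, with genotype alone in the model), adjusted by Benjamini-Hochberg across 14351 genes, with calls made under 0.05. Fold changes on this scale understate changes of low genes. Permutation tests were exact and two-sided (scipy 1.17.1). Simulated data were used to test this model. Positions and lengths came from GENCODE mouse release 21 on GRCm38. The members and lists were chosen with earlier results of these data known. Named genes were the members, Clic1, genes overlapping a member, abundant markers, and the 3 genes most like each member. From the 6 lists around the system, genes past the threshold or without overlap were named, plus up to 3 others of smallest p per list. Some further list and marker genes were also named. Alternatives were other pseudocounts, filters, scalings, variance models, weights, voom on estimated reads, Pmch summed with Parpbp, and leaving out or regrouping libraries.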

Additional observations from a re-analysis of the deposited data

Results flagged for a closer look

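Single libraries were compared with the rest of their group by Dixon's test for the member, list and marker genes. Of 252 groups of values, 28 had an outlying library, where chance gives about 12.6, and 19 of the 28 were KO replicate 10. None of the 10 groups of values of the orexin and MCH system genes had one, although replicate 10 was the lowest KO library for Hcrt, Hcrtr1, Hcrtr2 and Mchr1 and the highest for Pmch. Among the genes named in the text, KO replicate 10 stood apart from the other KO libraries in Avp (255.2 against 188.7 to 199.8 CPM), Sst (131.8 against 89.93 to 101.2 CPM), Cpe (1688 against 1039 to 1131 CPM), Scg5 (411.8 against 252.6 to 273.8 CPM), Pcsk1n (1482 against 723.7 to 905.1 CPM), Ntsr1 (17.01 against 23.4 to 24.4 CPM) and Hnmt (14.64 against 17.95 to 18.72 CPM). WT replicate 11 stood apart from the other WT libraries in Slc6a3 (77.14 against 3.44 to 12.1 CPM), Th (53.17 against 21.16 to 25.38 CPM) and Plcb4 (188.7 against 180.2 to 181 CPM). WT replicate 3 stood apart in Tac1 (46.42 against 52 to 52.3 CPM).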

How the results depend on the processing

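No alternative took a member past the adjusted threshold. Of 95 alternative values of the 5 genes, 88 kept both sign and call and 7 reversed. The filter and the variance models leave the log2 fold change itself unchanged, so only the call could differ there. The log2 fold change of Hcrt turned to 0.16 with array weights, 0.34 with replicate 10 as WT, 0.10 without KO replicate 8, 0.18 without KO replicate 10 and 0.08 without WT replicate 11. With replicate 10 as WT, Hcrtr2 turned to 0.033 and Mchr1 to 0.041. Leaving out each library in turn gave −0.15 to 0.18 for Hcrt, 0.16 to 0.33 for Pmch, −0.59 to −0.43 for Hcrtr1, −0.26 to −0.06 for Hcrtr2 and −0.20 to −0.02 for Mchr1. Over all settings the limma adjusted p was 0.754 to 0.998 for Hcrt, 0.453 to 0.992 for Pmch, 0.277 to 0.989 for Hcrtr1, 0.716 to 0.992 for Hcrtr2 and 0.756 to 0.996 for Mchr1. The number of all genes past the threshold was 41, and it moved to 27 with a filter of a mean of 5 CPM, 135 with array weights, 5 with replicate 10 as WT and 18 to 87 when each library was left out, with 87 without KO replicate 10 and 18 without WT replicate 1. The causes were not tested. Without replicate 10, r turned to 0.83 for Hcrt and Pmch, −0.40 for Hcrt and Mchr1 and −0.28 for Hcrtr1 and Hcrtr2. No paired analysis was made, because the sample labels used here give no litter and no pairing of KO with WT mice. Depth limited Hcrtr1 most, and it is below the filter of 5 CPM.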
